A study of Mus musculus with 9 samples.

Results

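The genes that load and show peptides on MHC class II were followed in RNA sequencing of mouse liver stellate cells and fibroblasts. The 9 genes were H2-Aa, H2-Ab1 and H2-Eb1, which encode the class II chains, Cd74, the invariant chain, H2-DMa and H2-DMb1, the chains of the peptide editor, Ciita, the transcriptional coactivator of class II genes, Ctss, a protease of the invariant chain, and Cd86, a costimulatory ligand. They were taken by symbol, and all 9 were found among the 24453 genes measured and were among the 13651 genes with enough reads to be tested.

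MHC class II molecules are heterodimers that carry peptides from endosomes to the cell surface, where CD4+ T cells read them. The invariant chain holds the groove closed during transport, cathepsin S trims it inside the endosome, and the DM heterodimer exchanges the remaining fragment for a peptide. Dendritic cells, B cells and macrophages make these molecules constitutively, whereas other cells, fibroblasts and hepatic stellate cells among them, can make them when interferon gamma switches on Ciita.

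The study compared HSCs, CCl4-fib and NASH-fib, with 3 libraries of each, each of them a pool of cells from 3 to 5 mice on the C57BL/6J background. HSCs were hepatic stellate cells of untreated wild-type livers, collected by density gradient with no antibody sort. CCl4-fib were fibroblasts of Col1a2-GFP Tg mice given carbon tetrachloride for 8 weeks, a model of toxic fibrosis. NASH-fib were fibroblasts of Col1a2-GFP Tg mice that also lacked the melanocortin 4 receptor (MC4R-KO) and ate a Western diet (WD) for 20 weeks, from 8 weeks of age, a model of steatohepatitis with obesity. Both kinds of fibroblasts were sorted as CD45- GFP+ cells, with GFP under the promoter of collagen Col1a2, so leukocytes were gated out of the fibroblasts but not out of the HSCs, and NASH-fib differed from CCl4-fib in genotype, diet and treatment at once. Labels do not say whether the 3 libraries of a group came from separate isolations, so p-values describe the spread between these pools.

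Reads on genes numbered 3071070 to 3825522 in HSC libraries, 4687349 to 5634273 in CCl4-fib and 3289758 to 5021156 in NASH-fib, and 3 reads amount to a value of 2.38 to 4.37. Values are read counts scaled to a common total, and levels of different genes are compared only per kilobase (kb) of exon. Lrat and Reln of stellate cells were at 7070 or more in every HSC library and at most 458 and 377 in fibroblasts. Of 8 stellate cell markers, 5 were called lower in CCl4-fib and 4 in NASH-fib than in HSCs, but Rgs5 was at 15987 to 29830 in NASH-fib and 14708 to 27511 in HSCs, and Des at 32.6 to 1102 and 32.0 to 302. Of 7 activated fibroblast markers, 6 were called higher in CCl4-fib and 5 in NASH-fib than in HSCs, while Postn was called lower in NASH-fib. Over all tested genes, 16.2% were called higher and 11.7% lower in CCl4-fib than in HSCs. In NASH-fib these shares were 8.23% and 4.3%. Markers of other cell types were read too. Hepatocyte markers summed to 24812 to 51028 in HSCs, 1903 to 2652 in CCl4-fib and 7198 to 30674 in NASH-fib, sinusoidal endothelial markers to 5263 to 13293, 228 to 241 and 951 to 3165, and neutrophil markers to 47.8 to 1034, 5.55 to 41.0 and 591 to 5997, and 6 of 6 mesothelial markers were called higher in both kinds of fibroblasts than in HSCs. Ptprc, which encodes CD45, was at 88.8 to 315 in HSCs, 8.73 to 25.5 in CCl4-fib and 62.3 to 319 in NASH-fib, so the sorted NASH-fib libraries overlapped with the unsorted HSCs in this mRNA. HSC replicate 2 and NASH-fib replicate 1 stood apart, with values that fell as the GC content of the transcript rose. In HSC replicate 3 and NASH-fib replicates 2 and 3, values rose with it. The labels of HSC replicate 2, NASH-fib replicate 1 and CCl4-fib replicate 1 open with the same pair of numbers. Such a pair reads as a date and is called the date below, but the labels do not say what it marks.

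Class II genes are read from promoters with X and Y boxes, the landing sites of the complex that Ciita joins, and interferon-response elements are bound by the factors that interferons activate. RefSeq promoters (GRCm38.p6) were at hand for 5 of the 9 genes, H2-Aa, H2-Eb1, H2-DMa, H2-DMb1 and Ctss. Windows are shown for H2-Aa, H2-Eb1, H2-DMb1 and Ctss, picked by hand, and not for H2-DMa. Whether the motifs relate to the levels was not tested. Capitals mark matches to the X1 core AGNAACNGA, the X2 core TGACG, the Y box core GATTGG and the interferon-response core GAAANNGAA, searched on both strands and chosen after the sequences had been seen. In H2-Aa the X2 core matches on both strands, and these matches overlap. The windows are H2-Aa at chr17:34287808-34287917 on the minus strand, H2-Eb1 at chr17:34305755-34305864, H2-DMb1 at chr17:34153076-34153185 and Ctss at chr3:95526745-95526835, these 3 on the plus strand.
H2-Aa: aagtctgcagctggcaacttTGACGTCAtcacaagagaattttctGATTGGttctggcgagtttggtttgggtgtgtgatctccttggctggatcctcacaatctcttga
H2-Eb1: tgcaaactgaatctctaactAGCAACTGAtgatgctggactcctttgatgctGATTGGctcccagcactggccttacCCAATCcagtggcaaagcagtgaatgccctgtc
H2-DMb1: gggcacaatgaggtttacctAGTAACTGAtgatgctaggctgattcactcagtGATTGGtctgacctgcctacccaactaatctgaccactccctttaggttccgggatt
Ctss: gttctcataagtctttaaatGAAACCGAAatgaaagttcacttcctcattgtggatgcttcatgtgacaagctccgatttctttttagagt

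Among 32851 promoters of the same length, 5.35% hold the X1 core, 20.8% the X2 core, 16.1% the Y box core and 8.56% the interferon-response core, and 0.798% hold the X1 and Y box cores together, as H2-Eb1 and H2-DMb1 do. H2-DMa had a Y box core in 1 of its listed promoters, at positions -199 to -194 from the start site, and none of the 4 cores in the other. A match of letters is a description and not a site of binding. The cores were chosen after the sequences had been seen, so the shares do not measure how unusual these matches are.

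In CCl4-fib, the levels of the class II chains, the invariant chain and the DM genes overlapped with those in HSCs, while Ctss and Cd86 were far lower. A gene was called when its log2 fold change in limma, on log2(value + 1), was at least 1 in size with an adjusted p under 0.05. Of the 9 genes, 2 fell in CCl4-fib compared with HSCs, Ctss and Cd86, where 27.8% of all tested genes were called in either direction. In NASH-fib compared with CCl4-fib, 1 rose, Ctss, where 10.6% of all genes were called. In NASH-fib compared with HSCs, 0 were called by limma, edgeR's quasi-likelihood test or DESeq2, where limma called 12.5% of all genes. Of the 9 genes, 0 reached an unadjusted limma p under 0.05, a looser limit for which the share of all genes is not given here. The libraries did not overlap for 2 genes between CCl4-fib and HSCs (48.6% of all genes), for 2 between NASH-fib and CCl4-fib (39.1%) and for 0 between NASH-fib and HSCs (24.4%). The median log2 fold change of the 9 genes was 0.09 between CCl4-fib and HSCs, -0.41 between NASH-fib and CCl4-fib and -0.30 between NASH-fib and HSCs, against 0.18, -0.11 and -0.02 over all genes. Each group serves in 2 of these comparisons, so they are not independent.

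**Figure D1:**
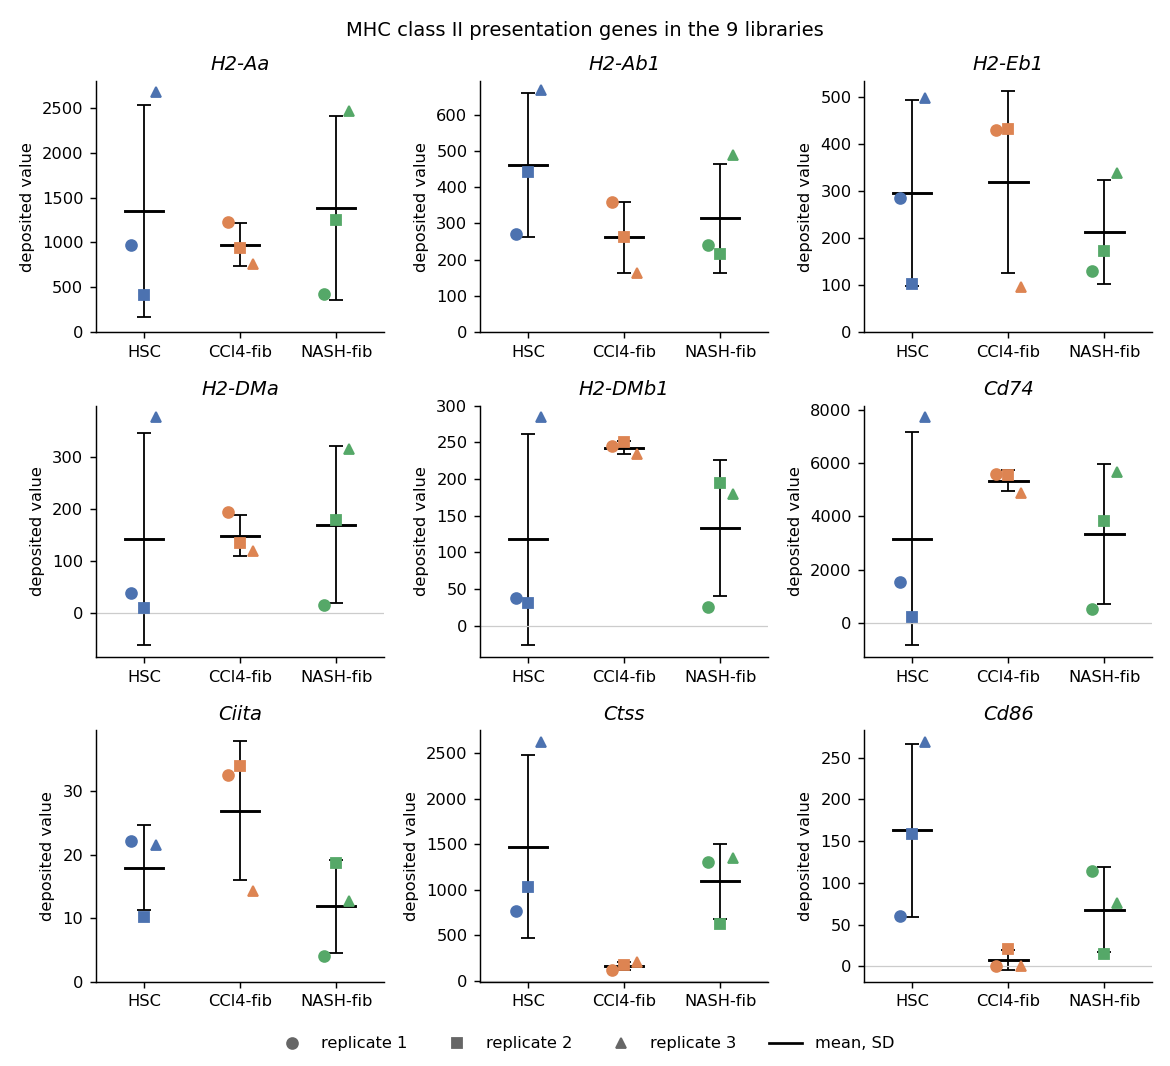
Deposited values (y axes, linear, scaled read counts) of the 9 genes in HSCs, CCl4-fib and NASH-fib, with a point for each of the 9 libraries, the mean and an SD bar. Ctss and Cd86 lie low in the 3 CCl4-fib libraries, while Cd74 and H2-DMb1 lie close together there and spread widely in the other groups.

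**Figure D2:**
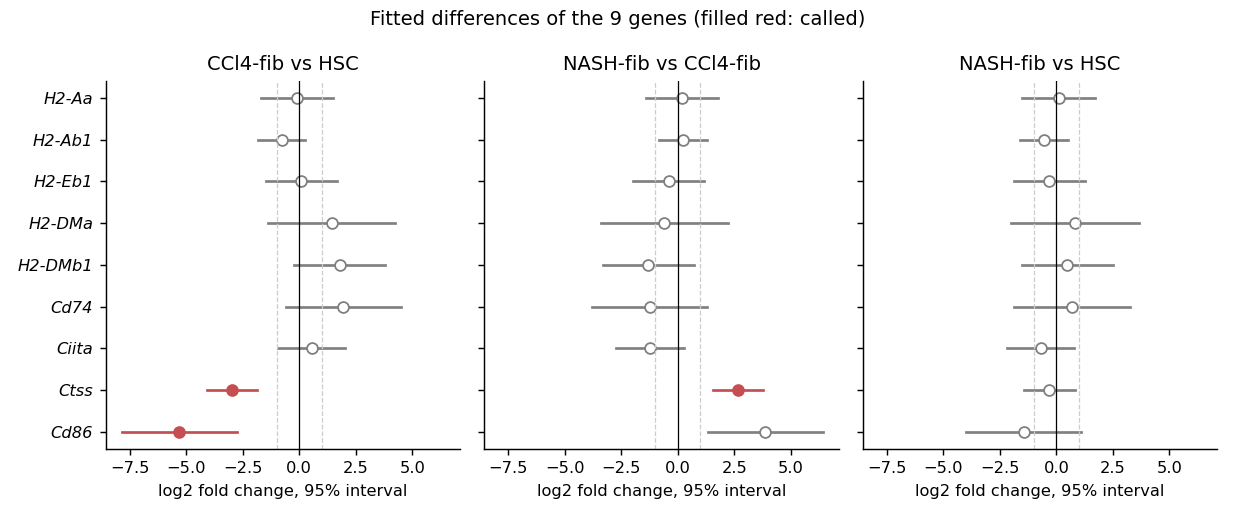
Log2 fold changes (x axes) of the 9 genes (y axis) in the 3 comparisons, with 95% intervals, filled in red where called, and dashed lines at 1 and -1. Only the 2 differences of CCl4-fib from HSCs in Ctss and Cd86 and the difference of NASH-fib from CCl4-fib in Ctss are filled.

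H2-Aa, the alpha chain of I-A (NM_010378, mm10 chromosome 17, 34282751 to 34287771), was read in every library. It was at 966, 415 and 2672 in HSC replicates 1, 2 and 3, at 1231, 937 and 755 in CCl4-fib and at 424, 1252 and 2467 in NASH-fib. The 3 groups overlapped, and the CCl4-fib libraries stayed within the range of both other groups. The log2 fold change was -0.10 ± 0.72 (SE) between CCl4-fib and HSCs, with a 95% interval of -1.70 to 1.50, which includes differences of more than 2-fold in either direction.

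H2-Ab1, the beta chain that pairs with it (NM_207105, chromosome 17, 34263227 to 34269418), was at 271, 443 and 667 in HSCs, at 360, 263 and 164 in CCl4-fib and at 239, 216 and 487 in NASH-fib. The groups overlapped here too, with the lowest library in CCl4-fib and the highest in HSCs. The log2 fold change between CCl4-fib and HSCs was -0.79 ± 0.48 (adjusted p = 0.240), and H2-Ab1 was called lower, at -1.85 (adjusted p = 0.0186), when values were corrected for GC content, an alternative chosen after seeing the data. H2-Eb1, the beta chain of I-E (NM_010382, chromosome 17, 34305867 to 34316674), was at 285, 103 and 497 in HSCs, at 429, 432 and 95.4 in CCl4-fib and at 131, 172 and 339 in NASH-fib. CCl4-fib replicate 3 was far below the other CCl4-fib libraries, so this group spread about as widely as HSCs. Reads for an alpha chain of I-E were absent, with H2-Ea-ps, its pseudogene in this strain, at 0 in all 9 libraries.

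Cd74 (NM_001042605, chromosome 18, 60803849 to 60812652) was the most abundant of the 9 genes per kb in the mean of every group. It was at 1536, 220 and 7729 in HSCs, at 5591, 5556 and 4876 in CCl4-fib and at 515, 3827 and 5682 in NASH-fib. The CCl4-fib libraries lay close together, with a mean of 5341 ± 403 (SD, n = 3), whereas the HSC libraries spanned more than the difference between any groups. The log2 fold change between CCl4-fib and HSCs was 1.95 ± 1.16 with an interval of -0.61 to 4.51 (adjusted p = 0.232), and it turned on HSC replicates 2 and 3. It was 3.19 and called without HSC replicate 3 (adjusted p = 0.0406), and 0.63 without HSC replicate 2 (adjusted p = 0.693). The tests on reads gave 0.65 by edgeR and 0.69 by DESeq2, not called. Cd74 reached 5.02 reads per base, and whether counting at most 3 reads per position lowered its values was not tested. It overlaps the microRNA gene Mir5107 on the same strand.

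Per kb of exon, the levels in CCl4-fib ran from Cd74 at 3804 ± 287 (SD, n = 3) through H2-Aa at 917 ± 226, H2-Ab1 at 221 ± 82.5, H2-Eb1 at 192 ± 117, H2-DMb1 at 190 ± 6.57, Ctss at 123 ± 31.9 and H2-DMa at 90.2 ± 24.1 to Ciita at 4.78 ± 1.95 and Cd86 at 2.93 ± 4.75. Every CCl4-fib library had more Cd74 than H2-Aa and more H2-Aa than H2-Ab1, while H2-Ab1, H2-Eb1 and H2-DMb1 could not be put in order against their spread. In HSCs the means per kb were 2252 ± 2856 for Cd74, 1272 ± 1108 for H2-Aa and 1092 ± 746 for Ctss, and in NASH-fib 2380 ± 1864, 1300 ± 967 and 811 ± 305. These 3 genes overlapped in both groups. Per kb, Ctss was above H2-Ab1 and H2-Eb1 in every HSC and NASH-fib library, while in CCl4-fib it was below H2-Aa in every library and overlapped with H2-Ab1 and H2-Eb1. Cd74 made up 45.5%, 15.9% and 62.0% of the summed level per kb of H2-Aa, H2-Ab1, H2-Eb1 and Cd74 in HSC replicates 1, 2 and 3, 69.8%, 74.4% and 79.3% in CCl4-fib, against 35.1%, 65.1% and 57.9% in NASH-fib. The share was higher in every CCl4-fib library than in any other, a reading chosen after the values were seen and not tested.

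The peptide editor DM followed the invariant chain. H2-DMa (NM_010386, chromosome 17, 34122832 to 34139101) was at 37.4, 10.2 and 377 in HSCs, at 194, 134 and 118 in CCl4-fib and at 15.0, 179 and 315 in NASH-fib. H2-DMb1 (NM_010387, chromosome 17, 34153191 to 34160229) was at 37.4, 30.6 and 285 in HSCs, at 245, 250 and 234 in CCl4-fib and at 25.8, 194 and 180 in NASH-fib. Both genes were high in HSC replicate 3 alone among HSCs and low in NASH-fib replicate 1 alone among NASH-fib, and even in CCl4-fib. H2-DMb1 was higher in every CCl4-fib library than in any NASH-fib library, but its log2 fold change of -1.31 ± 0.91 was not called (adjusted p = 0.367). Against HSCs it was 1.80 ± 0.91 (adjusted p = 0.166) and it was 2.81 and called without HSC replicate 3 (adjusted p = 0.0247), 1.22 without HSC replicate 2 (adjusted p = 0.419), 0.93 by edgeR and 0.97 by DESeq2. H2-DMb1 has a close copy, H2-DMb2, at 7.01, 1.46 and 68.2 in HSCs, at 55.6, 42.5 and 33.4 in CCl4-fib and at 0, 35.6 and 35.4 in NASH-fib, and reads may have been split between them.

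Of 5 other class II genes, 2 were tested and H2-Ob alone was called, between CCl4-fib and HSCs and between NASH-fib and CCl4-fib. In these comparisons 27.8% and 10.6% of all tested genes were called. H2-Ob encodes the beta chain of DO, which restrains DM in B cells and some dendritic cells. It was at 19.9, 14.6 and 16.7 in HSCs, at 0 in all 3 CCl4-fib libraries, and at 9.52, 8.02 and 13.8 in NASH-fib. These values stand for 17, 10 and 14 reads in HSCs and 7, 9 and 14 in NASH-fib. Against the floor of 3 reads a library, the mean was at least 6.56-fold lower in CCl4-fib than in HSCs. It was at least 4.02-fold higher in NASH-fib than in CCl4-fib. Both differences were called in limma (adjusted p = 0.0007105 and 0.0114) with any library left out, and both rest on the same 3 CCl4-fib libraries at 0. H2-Ob had enough reads to be tested only through HSCs and NASH-fib, so these calls are a description. Its partner H2-Oa had at most 9.56 in any library, and H2-Eb2 was read in NASH-fib alone, at 6.80, 2.67 and 11.8, near the floor.

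Ciita (NM_001302619, chromosome 16, 10480072 to 10527640) was low in all libraries. It was at 22.2, 10.2 and 21.5 in HSCs, at 32.5, 34.0 and 14.3 in CCl4-fib and at 4.08, 18.7 and 12.8 in NASH-fib, the lowest of which stands for 3 reads. The groups overlapped, and the log2 fold change between NASH-fib and CCl4-fib was -1.24 ± 0.67 (adjusted p = 0.251). Of 7 genes for the factors that bind the X and Y boxes, 7 were tested and 0 were called in any comparison. Between NASH-fib and HSCs, CCl4-fib and HSCs, and NASH-fib and CCl4-fib, 12.5%, 27.8% and 10.6% of all tested genes were called. In the same order, 0, 1 and 2 of the 7 reached an unadjusted limma p under 0.05. Of the genes with the largest mean values in this list, before division by length, Creb1 and Nfyb were at 237 to 634 and 200 to 561 in all libraries. Rfxank was at 98.2, 14.6 and 257 in HSCs, at 373, 330 and 284 in CCl4-fib and at 16.3, 389 and 314 in NASH-fib.

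Ifng, the gene for interferon gamma, had 0 reads in all 9 libraries, which describes these sorted or enriched cells and not the liver around them. Of the 8 genes of this route 6 were tested, and Socs1, an inhibitor of the signal, had at most 8 reads in any library. Jak1, a kinase of the receptor, was at 3489, 4834 and 2578 in HSCs, at 863, 953 and 912 in CCl4-fib and at 2675, 1254 and 1514 in NASH-fib, and it was called lower in CCl4-fib than in HSCs at a log2 fold change of -1.95 ± 0.37 (adjusted p = 0.00321) with any library left out. Jak2 was also called lower, at a log2 fold change of -1.12 (adjusted p = 0.0453), a call lost without any of 7 of the 9 libraries, namely HSC replicates 1 and 2, all CCl4-fib libraries and NASH-fib replicates 2 and 3. Ifngr2, a chain of the receptor, was at 428 to 790 in all libraries and was not called.

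Ctss, the gene of cathepsin S (NM_001267695, chromosome 3, 95526786 to 95556405), was the member whose groups parted most clearly. It was at 767, 1030 and 2627 in HSCs, at 119, 174 and 204 in CCl4-fib and at 1312, 621 and 1353 in NASH-fib. Every CCl4-fib library was below every other library, and HSCs and NASH-fib overlapped. The gene fell by 2.97 ± 0.50 on the log2 scale in CCl4-fib compared with HSCs (adjusted p = 0.00169), a call made with any library left out. It rose by 2.67 ± 0.50 in NASH-fib compared with CCl4-fib (adjusted p = 0.0140), and this call was lost without CCl4-fib replicate 1 (adjusted p = 0.0510), CCl4-fib replicate 2 (0.0579) or NASH-fib replicate 3 (0.0560), at log2 fold changes of 2.45 to 2.72. Within the date shared by 1 library of each group, Ctss was at 1030 in HSCs, 119 in CCl4-fib and 1312 in NASH-fib. On the date shared by HSC replicate 3 and CCl4-fib replicate 2 it was at 2627 and 174. On that of CCl4-fib replicate 3 and NASH-fib replicates 2 and 3 it was at 204, 621 and 1353. CCl4-fib was the lowest group on each shared date, which is a description of few libraries and not a test. HSC replicate 1 shared its date with no other library. In bulk libraries, fewer cells of a type and less RNA per cell cannot be told apart.

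Over all tested genes, 27.8% were called between CCl4-fib and HSCs and 10.6% between NASH-fib and CCl4-fib. Among 8 other lysosomal genes, Lgmn alone was called, in both comparisons. Legumain, its product, is an asparagine endopeptidase that can also open the invariant chain. Lgmn was at 413, 625 and 1497 in HSCs, at 2907, 3647 and 3780 in CCl4-fib and at 174, 404 and 342 in NASH-fib. It rose by 2.23 ± 0.49 in CCl4-fib compared with HSCs (adjusted p = 0.00714) and fell by 3.56 ± 0.49 in NASH-fib compared with CCl4-fib (adjusted p = 0.00673), both with any library left out, so the fibroblast groups were ordered oppositely for Lgmn and Ctss. Ctsl, Ctsb and Ctsd, the cathepsins of the list with the largest mean values before division by length, were not called.

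Cd86, a ligand of CD28 on T cells (NM_019388, chromosome 16, 36603869 to 36666077), was nearly absent from CCl4-fib. It was at 60.8, 159 and 269 in HSCs, at 0, 21.3 and 0.95 in CCl4-fib, from 0, 25 and 1 reads, and at 114, 14.3 and 75.7 in NASH-fib. Every CCl4-fib library was below every HSC library, while CCl4-fib replicate 2 was above the lowest NASH-fib library. The log2 fold change of CCl4-fib from HSCs was -5.30 ± 1.15 (adjusted p = 0.00659), called with any library left out. NASH-fib differed from CCl4-fib by 3.87 ± 1.15, which missed the threshold (adjusted p = 0.0564) and passed it by DESeq2 (adjusted p = 0.0175), with the date as a block (0.0396), and when CCl4-fib replicate 2 (0.0420) or NASH-fib replicate 2 (0.0312) was left out. Within the date shared by 1 library of each group, Cd86 was at 159 in HSCs, 0 in CCl4-fib and 114 in NASH-fib.

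Of 6 other costimulatory or inhibitory ligands, 4 were tested. Cd83, which marks mature dendritic cells and keeps class II at the surface, was at 67.8, 72.8 and 25.1 in HSCs, at 0.79, 0 and 0 in CCl4-fib and at 29.9, 4.45 and 10.8 in NASH-fib. It fell by 5.39 ± 0.78 in CCl4-fib compared with HSCs (adjusted p = 0.000664, with any library left out) and rose by 3.37 ± 0.78 in NASH-fib compared with CCl4-fib (adjusted p = 0.0251, lost without any of the CCl4-fib libraries or NASH-fib replicates 1 or 3). Cd83 had at most 1 read in a CCl4-fib library, so it was tested only through HSCs and NASH-fib. Icosl, the ligand of ICOS, was called higher in CCl4-fib than in HSCs at 3.63 ± 1.11 (adjusted p = 0.0328), with values of 178, 89.3 and 28.6 against 3.51, 1.46 and 21.5. Cd274, the gene for PD-L1, was called lower at -1.63 ± 0.48 (adjusted p = 0.0305), with 50.0, 44.2 and 32.4 against 216, 71.4 and 144. The Icosl call was lost without HSC replicates 1 or 2 or CCl4-fib replicates 1 or 2, and the Cd274 call without HSC replicates 1 or 3 or any CCl4-fib library. Cd80, which shares its receptor with Cd86, was at most 10.8 in any library and was not tested.

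March1, the ubiquitin ligase that removes class II and CD86 from the surface of dendritic cells and B cells, went with Cd86. It was at 44.4, 99.0 and 41.8 in HSCs, at 0 in all 3 CCl4-fib libraries, and at 46.2, 6.23 and 39.3 in NASH-fib. The mean was at least 23.8-fold lower in CCl4-fib than in HSCs and at least 11.8-fold higher in NASH-fib than in CCl4-fib. In limma both were called (adjusted p = 0.0004145 and 0.0111) with any library left out, and both rest on the same 3 CCl4-fib libraries at 0. March1 had enough reads to be tested only through HSCs and NASH-fib, so these calls are a description. March8, a relative that many cell types express, was at 121 to 317 in all libraries and was not called.

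**Figure D3:**
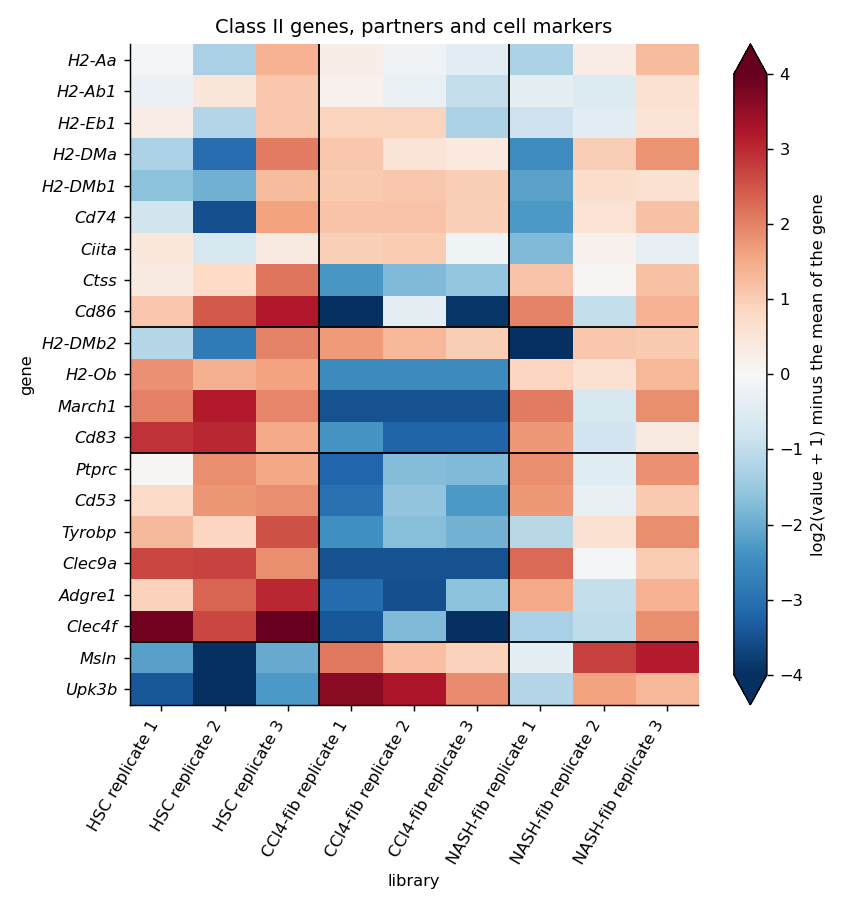
Log2(value + 1) minus the mean of the gene (colour, from -4 to 4) for the 9 genes, 4 partners, 6 leukocyte genes and 2 mesothelial genes (y axis) in the 9 libraries (x axis). In CCl4-fib, Ctss, Cd86, H2-Ob, March1, Cd83 and the leukocyte genes are blue while Cd74 and the DM genes are above their mean.

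Between CCl4-fib and each of the other groups, markers of leukocytes differed in the direction of Ctss and Cd86. Markers of sinusoidal endothelium and hepatocytes did so too. Of 8 sinusoidal endothelial markers, 8 were called lower in CCl4-fib than in HSCs and 6 higher in NASH-fib than in CCl4-fib. Of 10 hepatocyte markers, these counts were 9 and 7, and 0 of either list were called in the opposite direction. Over all tested genes, 11.7% were called lower in CCl4-fib than in HSCs and 4.97% higher in NASH-fib than in CCl4-fib. Of 8 leukocyte markers, 7 were called lower in CCl4-fib than in HSCs (Ptprc, Laptm5, Cd52, Cd53, Tyrobp, Fcer1g and Spi1) and 4 higher in NASH-fib than in CCl4-fib. Their summed value was 1761 to 4514 in HSCs, 173 to 400 in CCl4-fib and 1188 to 2747 in NASH-fib. Of 14 macrophage markers, 11 were called lower in CCl4-fib than in HSCs and 5 higher in NASH-fib than in CCl4-fib, with sums of 5680 to 19113, 486 to 970 and 3111 to 6827. Of 9 dendritic cell markers, 5 were tested and Clec9a was called lower in CCl4-fib than in HSCs, with sums of 137 to 173, 27.7 to 58.7 and 63.2 to 190. Clec9a, Xcr1, Flt3, Ccr7 and Siglech were at 0 in all CCl4-fib libraries, though Zbtb46, the other defining marker, was at 57.9, 33.2 and 24.8 there. Of 9 B cell markers, 5 were tested and Cr2 and Bank1 were called lower in CCl4-fib than in HSCs, with sums of 171 to 244, 9.35 to 27.8 and 60.6 to 163. Ms4a1, a defining marker, was at most 0.85 in CCl4-fib. Of 7 T cell markers, 2 were tested and 0 were called in this comparison, and they summed to 31.6 to 51.4, 2.86 to 15.3 and 32.9 to 165, with Cd3e and Cd3d at 0 in CCl4-fib. Between NASH-fib and HSCs, 0 of the 8 leukocyte markers were called. Of the 14 macrophage markers, 5 were called lower (Csf1r, Clec4f, Marco, Timd4 and Cd163), where 4.3% of all tested genes were. Siglech, of the dendritic cell markers, was called higher there. The part of leukocytes, or of other cell types, in the levels of Ctss, Cd86, H2-Ob and March1 was not tested.

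Cd74 was at 4876 to 5591 in CCl4-fib, the libraries with the lowest summed leukocyte markers. The value of Cd74 was 17.3, 0.699 and 29.9 times that of Ptprc in HSC replicates 1, 2 and 3, 640, 218 and 197 times in CCl4-fib, and 1.61, 61.4 and 18.2 times in NASH-fib. Relative to Ctss it was 2.003, 0.214 and 2.94 in HSCs, then 47.0, 32.0 and 23.9 in CCl4-fib, then 0.393, 6.17 and 4.20 in NASH-fib. Relative to the sum of the 8 leukocyte markers it was 0.873, 0.0864 and 1.71, then 32.3, 13.9 and 16.9, then 0.355, 3.22 and 2.07. The ratios are highest in CCl4-fib, which follows from the low Ptprc, Ctss and marker values given above and adds no evidence of its own. They were chosen after the values were seen, and values are not divided by length in them, so they compare libraries and not genes. The part of leukocytes in the levels of Cd74 and the class II chains was not tested. Mesothelial markers, which summed to 555 to 794 in HSCs, 12447 to 20229 in CCl4-fib and 21365 to 26565 in NASH-fib, were high in both kinds of fibroblasts, and their part in the level of Cd74 was not tested.

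**Figure D4:**
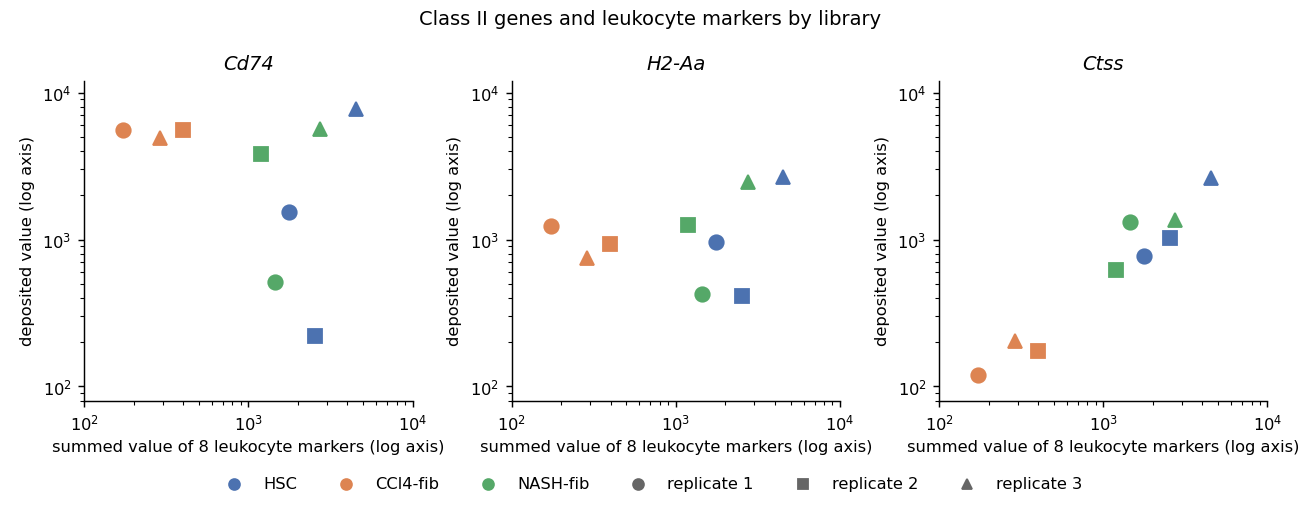
Values of Cd74, H2-Aa and Ctss (y axes, log scale) against the summed value of 8 leukocyte markers (x axes, log scale) in the 9 libraries, coloured by group with a symbol for each replicate. Ctss is low where the markers are low, in CCl4-fib, whereas Cd74 there stays between 4876 and 5591.

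Across libraries, Cd74 went with the DM genes and H2-Aa, and Ctss went with Cd86. Over the 9 libraries, Pearson's r of log2(value + 1) was 0.96 between Cd74 and H2-DMa, 0.93 between Cd74 and H2-DMb1, 0.93 between H2-DMa and H2-DMb1, and 0.82 between Cd74 and H2-Aa. Ctss and Cd86 went together at 0.90 but had r of 0.12 and 0.06 with the mean of the scaled H2-Aa, H2-Ab1, H2-Eb1 and Cd74. H2-Ab1 stood between these, with r of 0.52 with H2-Aa, 0.06 with Cd74, 0.55 with Ctss and 0.55 with Cd86. H2-Eb1 and Ciita had r of 0.65 and 0.67 with Cd74. No clustering was run. The 10 other genes whose levels were most like that mean were Cyb5rl (r = 0.955), Madd (0.931), Scn10a (0.927), Osgin1 (0.927), Paox (0.912), Slc37a4 (0.904), Dcxr (0.899), Dhx58 (0.891), Hagh (0.890) and Cyp2j6 (0.886). These are descriptions over 9 libraries that share groups, dates and base composition. The 9 members were left out of this ranking, so it does not show whether class II genes go together.

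Values moved with GC content. They fell with it in HSC replicate 2 and NASH-fib replicate 1, and rose in HSC replicate 3 and NASH-fib replicates 2 and 3. HSC replicate 2 deviated from the other HSC libraries by a median log2 of 0.73 in the 10% of genes with the lowest GC content and by -0.79 and -0.65 in the 2 classes of this size with the highest. NASH-fib replicate 1 went from 0.99 to -1.27 and -1.08, whereas CCl4-fib replicate 1, of the same date, stayed between -0.10 and 0.10. HSC replicate 3 went from -0.53 to 0.73 and 0.55, and NASH-fib replicate 2 from -0.44 to 0.95 and 0.96. Each deviation is from the other 2 libraries of a group, so the libraries of a group do not deviate independently. The transcripts of 7 of the 9 genes have a GC content of 51.0% to 57.4%, and those of Ctss and Cd86 46.0% and 43.2%. Cd74 deviated by -3.96 in HSC replicate 2 and -3.18 in NASH-fib replicate 1, and H2-DMa by -3.43 and -3.90, which is more than the median gene of their GC content did. In HSC replicate 3, Cd74 and H2-DMa deviated by 3.73 and 4.19. H2-Ab1, with 57.3%, deviated by 0.06 and -0.44. With HSC replicate 2 and NASH-fib replicate 1 left out, or with values corrected for GC content, the calls of Ctss and Cd86 held. Both were lower in CCl4-fib than in HSCs, and Ctss was higher in NASH-fib than in CCl4-fib. The log2 fold change of Cd74 between CCl4-fib and HSCs went to 0.94 with the correction. How much of the spread GC content accounts for was not tested.

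**Figure D5:**
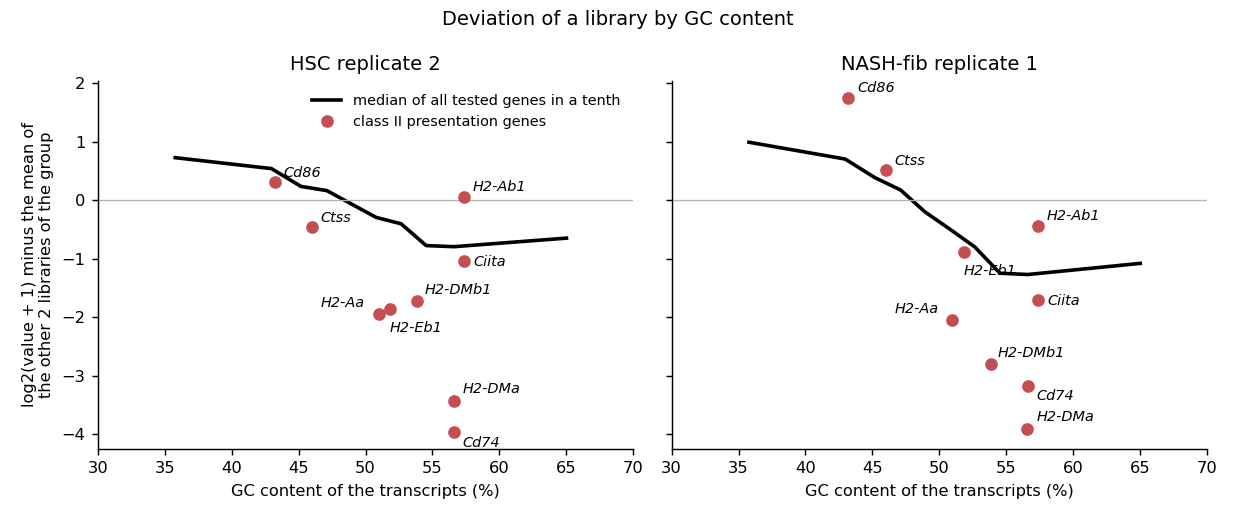
Deviation of HSC replicate 2 and of NASH-fib replicate 1 from the other 2 libraries of their group (y axis, log2) against the GC content of the transcripts (x axis, percent), as medians over 10 classes of all tested genes at the middle of each range (line) and for the 9 genes (points). The lines fall from 0.73 to -0.65 and from 0.99 to -1.08, and Cd74 and H2-DMa lie between -3.96 and -3.18. HSC replicate 3 and NASH-fib replicate 2, which went the other way, are not drawn.

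Class I presentation, which all nucleated cells share, was set beside class II through 11 genes, all tested. Between NASH-fib and HSCs, 4 were called lower, H2-K1, H2-D1, Psmb9 and Nlrc5, and 0 higher. Over all tested genes, 4.3% were called lower and 8.23% higher in this comparison. H2-D1, a class I heavy chain, was at 4738, 2738 and 4554 in HSCs, at 1577, 1863 and 1098 in CCl4-fib and at 926, 1572 and 1379 in NASH-fib, and was called lower in both kinds of fibroblasts than in HSCs, at log2 fold changes of -1.40 ± 0.37 in CCl4-fib (adjusted p = 0.0172, lost without HSC replicate 1 or CCl4-fib replicates 1 or 3) and -1.63 ± 0.37 in NASH-fib (adjusted p = 0.0138, lost without HSC replicate 1). Nlrc5, the class I counterpart of Ciita, was at 241, 300 and 159 in HSCs, at 42.9, 36.6 and 17.2 in CCl4-fib and at 88.4, 22.3 and 33.4 in NASH-fib. It was called lower than in HSCs at -2.87 ± 0.58 in CCl4-fib (adjusted p = 0.00456, with any library left out) and at -2.45 ± 0.58 in NASH-fib (adjusted p = 0.0185, lost without HSC replicates 1 or 2 or NASH-fib replicates 2 or 3). Ciita itself was called in neither comparison. Psmb10, a subunit of the immunoproteasome, was at 126, 45.1 and 250 in HSCs, at 1122, 877 and 418 in CCl4-fib and at 17.7, 157 and 67.8 in NASH-fib, called higher in CCl4-fib than in HSCs (adjusted p = 0.0308, in 5 of the 9 fits that leave out a library) and lower in NASH-fib than in CCl4-fib (adjusted p = 0.0226, in 6 of 9). Tap2, of the peptide transporter, and Psmb9 were also called lower in NASH-fib than in CCl4-fib, at -3.22 ± 0.67 and -2.26 ± 0.46 (adjusted p = 0.0191 and 0.0168, each in 6 of 9), and Erap1, which trims class I peptides, was called lower in CCl4-fib than in HSCs and higher in NASH-fib than in CCl4-fib (adjusted p = 0.0480 and 0.0477, each in 3 of 9).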

How the data were processed

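For the 9 libraries, the authors amplified RNA with the SMARTer kit, sequenced it from 1 end and used STAR for alignment to mm10. The deposited values are a signal per gene, namely HOMER counts on the exons of RefSeq genes, of either strand, with at most 3 reads per position, multiplied by 1 factor per library that, per the file headers, came from a normalization over 10 libraries, of which the tenth is not analysed here. When divided by that factor, 100% of the values came out as whole reads within 0.02, and the recovered reads give the depths. Since PCR copies were not marked by molecular identifiers, the floor of 3 reads covers counting error only.

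Since the values are not counts, the test was limma 3.58.1 (R 4.3.3) on log2(value + 1), as set for any unit other than counts, in 1 fit over the 3 groups with a trended prior variance, for genes kept by filterByExpr of edgeR 4.0.16 (minimum count 10 on the recovered reads). Fold changes on this scale understate those of low genes. The Benjamini-Hochberg adjustment ran over 13651 genes, and the threshold of a log2 fold change of 1 and an adjusted p of 0.05 is that of the study. The script was tested on simulated data. Lists of pathway genes and cell markers were written by hand from general knowledge. The genes named are the 9 members, the called genes of each pathway list with its 3 most abundant genes where fewer than 3 were called, the defining markers of each cell type, Ptprc, and the 10 genes most like the mean of H2-Aa, H2-Ab1, H2-Eb1 and Cd74, and others were named after their values were seen. Some genes that this rule names are not reported here. The members and lists were chosen with earlier results of these data known. GC content was available for 98.5% of the tested genes. Alternatives were edgeR's quasi-likelihood test and DESeq2 1.42.0 on recovered reads, no filter on low values, pseudocounts of 0.5 and 5, the 2 groups compared alone, blocks for the replicate number and the date, rescaling by TMM, a prior spread without trend, and each library left out in turn. Chosen after seeing the data were a GC correction and a fit without HSC replicate 2 and NASH-fib replicate 1. Deviations of same-numbered libraries from their group means had r from -0.47 to 0.51, the highest between HSC replicate 3 and NASH-fib replicate 3. HSC replicate 2 and NASH-fib replicate 1, of different numbers but the same date, had r of 0.65. Replicate numbers were not taken as pairs.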

Additional observations from a re-analysis of the deposited data

How the results depend on the processing

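The count of the 9 genes called was 0 between NASH-fib and HSCs under every alternative run. Between CCl4-fib and HSCs it was 2, Ctss and Cd86, under all alternatives but the GC correction, with 3, and the fit without HSC replicate 3, with 4, the range with a library left out being 2 to 4. Between NASH-fib and CCl4-fib it was 1, with 2 by DESeq2 and with the date as a block, and 0 to 2 with a library left out, 0 without CCl4-fib replicate 1 or NASH-fib replicate 3. With the replicate number as a block the counts were 0, 2 and 1, and the numbers were not taken as pairs. DESeq2 gave H2-DMb1 no adjusted p.

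Log2 fold changes that turned in sign all belonged to differences that were not called, and the cause was not tested. With a library left out, those between NASH-fib and HSCs ran from -0.55 to 0.79 for H2-Aa, from -0.93 to 0.19 for H2-Eb1, from -0.31 to 2.22 for H2-DMa, from -0.093 to 1.50 for H2-DMb1, from -0.62 to 1.94 for Cd74 and from -0.67 to 0.22 for Ctss. Those between CCl4-fib and HSCs ran from -0.75 to 0.59 for H2-Aa and from -0.53 to 0.81 for H2-Eb1, and those between NASH-fib and CCl4-fib from -0.39 to 0.88 for H2-Aa, from -0.13 to 0.49 for H2-Ab1 and from -1.45 to 0.70 for H2-DMa. H2-Eb1 was at 0.73 (NASH-fib and HSCs) and 0.19 (NASH-fib and CCl4-fib) with the date as a block, and between CCl4-fib and HSCs at -0.027 with TMM, -0.53 without HSC replicate 2 and NASH-fib replicate 1, and -0.32 with the GC correction. H2-DMa was at -0.0368 between CCl4-fib and HSCs by edgeR, and between NASH-fib and CCl4-fib at 0.34 by edgeR, 0.30 by DESeq2, 0.70 without both libraries and 0.46 with the GC correction. H2-DMb1 was at -0.22 between NASH-fib and HSCs with the date as a block, and Ciita at -0.53 between CCl4-fib and HSCs with the GC correction.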
